A study of Mus musculus with 9 samples.

Results

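The genes described here make cholesterol, sense it and move it: 31 genes of the sterol pathway, taken by symbol from the 46517 gene rows of each library. They comprise 18 enzymes of cholesterol synthesis, 5 genes that control the sterol regulatory element binding proteins (SREBPs), 3 genes that carry sterol inside the cell, and 5 genes of sterol efflux, the liver X receptors (LXRs) and control of lipoprotein uptake. Each of the 31 had 1 row and passed the filter on low counts. Their RNA was measured by bulk sequencing in 4 cell populations sorted from mouse back skin at postnatal day 30, when follicles were in anagen VI, the late growth stage. The populations were hair follicle stem cells (HFSC, n = 3 libraries), outer root sheath (ORS, n = 2), basal hair bulb (basal HB, n = 2) and suprabasal hair bulb (suprabasal HB, n = 2). No treatment or deletion is given for any of them. For all 9 libraries the strain is labelled Lhx2-GFP (CD1), whereas the extraction protocol names K14-H2BGFP mice (a histone-GFP reporter under the K14 keratin promoter), so which GFP allele the cells carried is not settled. The labels give sex as mixed and list 6 sort markers for every library (CD34, P-cadherin, Sca-1, GFP, and the integrins α6 and β1), without the gates. How many mice made up a library, and whether replicates were separate animals, is not stated. The p-values below therefore measure the spread between these libraries, which may be technical.

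Cells build cholesterol from acetyl-CoA through mevalonate, squalene and lanosterol, and the enzymes of this route are largely switched on together by SREBP2, with the related SREBP1 acting mainly on fatty acid genes. When sterol in the endoplasmic reticulum is low, SCAP carries the SREBPs to the Golgi to be cut into active transcription factors, and when sterol is high the INSIG proteins hold SCAP back. Oxysterols activate the LXRs, which raise the efflux pumps ABCA1 and ABCG1 and the ubiquitin ligase IDOL, encoded by Mylip, which marks lipoprotein receptors for degradation. In skin, cholesterol is a building block of the lamellar lipids of the barrier and of sebum, and inherited defects of its synthesis are known to affect skin and hair.

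The libraries held 25098237 to 88596741 estimated counts, and the 3 HFSC libraries were the shallowest, so depth and the HFSC population cannot be told apart. Log2 expression of libraries correlated at 0.973 to 0.991 within populations and at 0.876 to 0.958 between them. Of 6 markers of follicle stem cells, Sox9, Cd34, Krt15 and Lgr5 had their highest mean CPM (counts scaled to library size) in HFSC. Lhx2 was highest in ORS (3172 CPM, against 1349 in HFSC). Nfatc1 was highest in suprabasal HB (mean 7.05 CPM, against 4.35 in HFSC) and was at most 7.5 CPM in every library. Of 6 inner root sheath and hair shaft markers, Krt35, Krt71, Krt73 and Krt27 were highest in suprabasal HB, Tchh in basal HB (4005 CPM, against 625 in suprabasal HB) and Gata3 in ORS. The 4 keratins used to mark outer root sheath (Krt5, Krt14, Krt17 and Krt6a) summed to 9055 to 11393 CPM in HFSC against 3251 and 3877 CPM in ORS. Markers of pigment cells rose steeply across the bulb: the 8 melanocyte markers summed to 88.8 to 152 CPM in HFSC, 327 and 75.9 in ORS, 1321 and 883 in basal HB, with suprabasal HB at 14969 and 15282. The suprabasal HB libraries also had the largest mitochondrial share of counts, 4.36% in both, against 2.28% to 2.89% elsewhere. In such bulk libraries, fewer cells of a type and less RNA per cell cannot be told apart.

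The synthesis enzymes were low in HFSC and high in both hair bulb populations, and most of the step lay between ORS and basal HB. Summed over the 18 enzymes, transcript levels per length (TPM, in which a library's values are scaled to gene length and to a common total) were 590, 661 and 639 in HFSC, 1179 and 735 in ORS, 2315 and 2064 in basal HB, against 2130 and 1581 in suprabasal HB. The 4 hair bulb libraries lay above all 5 others. The ORS libraries lay above HFSC on this scale but far apart from each other, and by summed CPM ORS replicate 2, at 880, lay within the HFSC range of 787 to 1000. By mean CPM, 8 of 18 enzymes were highest in basal HB and 10 in suprabasal HB. In basal HB against ORS, 15 of 18 enzymes rose and none fell (edgeR quasi-likelihood test, adjusted p under 0.05), where 15.8% of the 20491 genes tested rose and 14.7% fell, and the median log2 change of the enzymes was 1.13, against -0.039 for all genes. In basal HB against HFSC, 16 enzymes rose and 1 fell, with a median log2 change of 1.38, where 22.8% of genes rose and 26.1% fell. All 18 enzymes rose in suprabasal HB against HFSC, at a median of 1.47, where 25.2% of genes rose and 26.3% fell. All 18 also rose in suprabasal HB against ORS, at a median of 1.06, where 14.3% of genes rose and 15.1% fell. In suprabasal HB against basal HB, 3 enzymes rose and none fell, at a median of 0.06 (-0.22 on TPM), where 13.1% of genes rose and 14.8% fell. At an unadjusted p under 0.05, 1 enzyme fell in that last comparison and none in the other 3 in which no enzyme fell by edgeR, and DESeq2 called no fall in any of the 4. With only the 2 bulb populations in the edgeR fit, Hmgcs1 was called lower in suprabasal HB (adjusted p = 0.0271). Over all 31 members, 7 rose and 3 fell in ORS against HFSC (18.1% and 23.8% of all genes). In basal HB against ORS 23 rose and 1 fell (15.8% and 14.7%), and in suprabasal HB against basal HB 3 rose and 3 fell (13.1% and 14.8%). When each library in turn was left out, the enzymes that rose numbered 10 to 16 in basal HB against ORS, 15 to 17 in basal HB against HFSC, 13 to 18 in suprabasal HB against ORS, and 14 to 18 in suprabasal HB against HFSC. On TPM, 12 of 18 rose in suprabasal HB against ORS.

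Markers of several other cell types also rose in basal HB against ORS, where 15.8% of all genes rose and 14.7% fell. These were 7 of 8 melanocyte, 6 of 10 sebaceous gland, 4 of 8 fibroblast and papilla, 4 of 4 adipocyte and 2 of 7 immune markers, against 3 of 6 hair bulb matrix markers. In the same comparison 2 sebaceous gland markers and 1 fibroblast and papilla marker fell. Of 4 endothelium markers none rose and 1 fell. Of 6 inner root sheath and shaft markers 2 rose and 2 fell. The part of these cells in the rise of the enzymes was not tested. Of the sebaceous gland markers, Awat2, Elovl3, Cidea and Plin5 were at most 3.11, 0.829, 0.399 and 0.247 CPM in any library. Mc5r was 2.90 and 2.97 CPM in basal HB and at most 0.509 CPM elsewhere. Mean CPM in ORS and basal HB was 0.168 and 0.779 for Elovl3, 0.028 and 0.287 for Cidea, and 0.078 and 0.228 for Plin5. It was 0.583 and 2.69 for Pparg, 0.754 and 1.79 for Scd3, and 29.8 and 81.1 for Plin2. Fabp5 and Mgst1 were lower in basal HB than in ORS, at means of 479 and 70.1 CPM. The 10 sebaceous markers summed to 502 to 799 CPM in HFSC, 1027 and 954 in ORS, 589 and 692 in basal HB, against 1073 and 1262 in suprabasal HB. That sum was mostly Fabp5 and Mgst1, at 851 and 107 CPM in ORS on average, while the median log2 change of the 10 markers in basal HB against ORS was 1.49. The 4 adipocyte markers summed to at most 4.49 CPM.

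**Figure D1:**
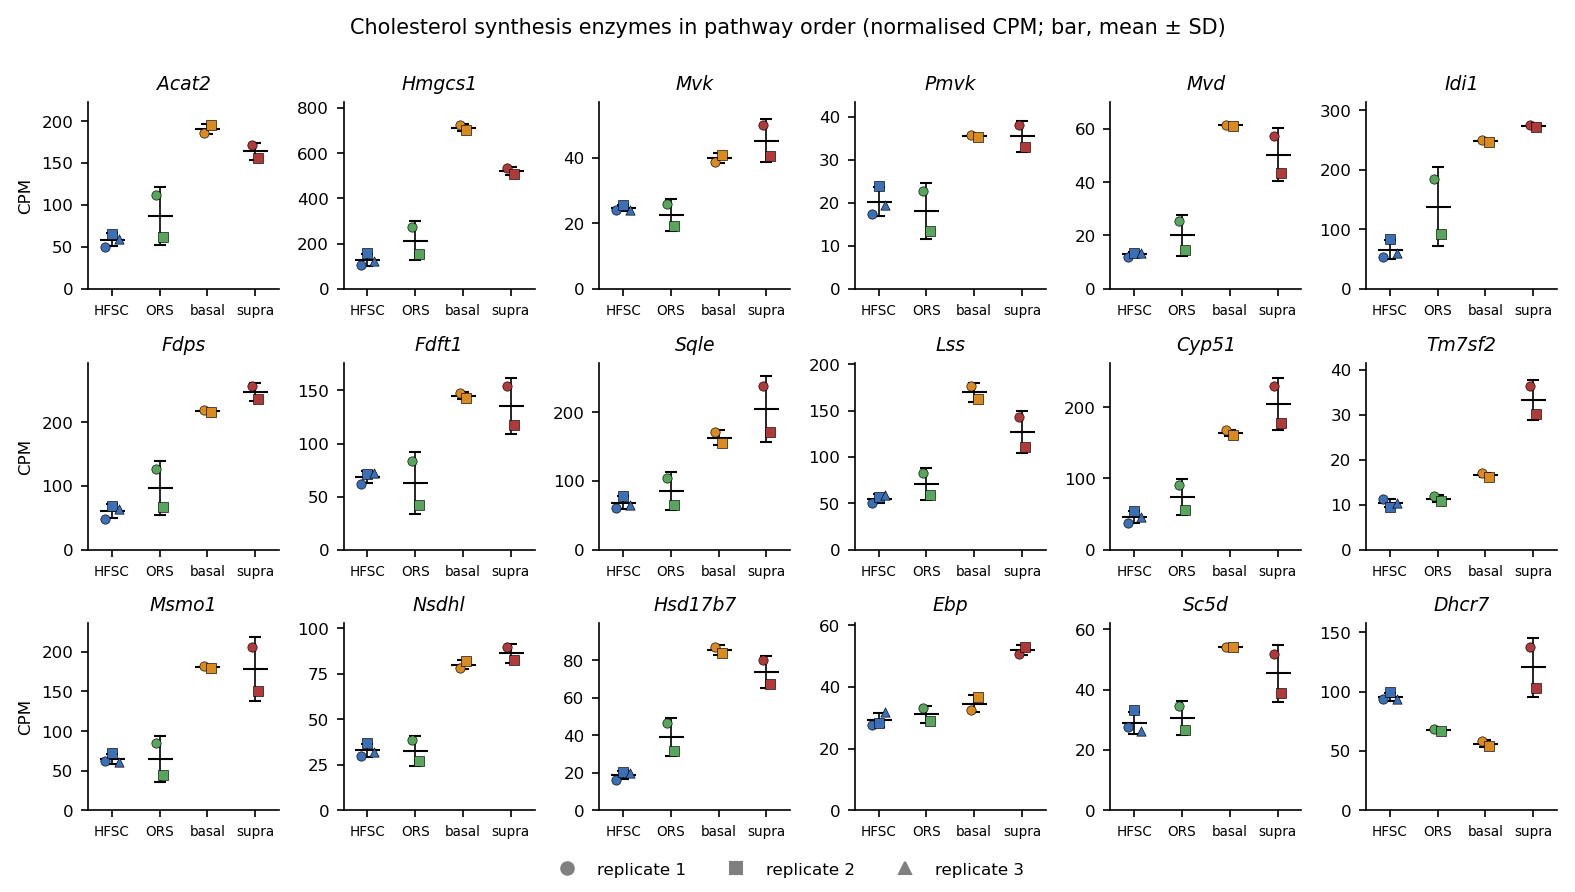
Normalised CPM (linear axes from 0) of the 18 synthesis enzymes, in pathway order, in HFSC, ORS, basal HB and suprabasal HB (supra); points are libraries and the black bars are the mean ± SD over 3, 2, 2 and 2 libraries. In most panels the basal HB libraries stand well above HFSC, and ORS replicate 1 stands above ORS replicate 2 in all 18; Dhcr7 runs the other way, with basal HB lowest.

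Since the enzymes rose together, their promoters were read for short words bound by known regulators. RefSeq promoters (GRCm38.p6, 250 bases before to 50 after a start) were matched for 25 of the 31 genes, 15 of them enzymes. A gene with several starts counted as holding a word if any start held it. Numbers of starts per gene were not compared between the members and all genes. The sterol regulatory element word TCACNCCAC, searched on both strands, occurred in 1 of the 25, Hmgcs1, and in 1.436% of 27025 genes with a promoter. Other spellings of the element were not searched, so this count covers that word only. The CCAAT word, the NF-Y motif, occurred in 20 of 25 and in 14 of 15 enzymes, against 41.058% of all genes. The E-box word CACGTG occurred in 6 of 25, against 8.093%. CCAAT and CACGTG were added after the values were known, and the median GC content of the promoters was 62.6% for the members and 52.8% for all genes, a difference whose part in these shares was not tested. None of the 52 matches overlapped another. These matches are letters only and show no binding. The 200 bases before the start are shown for 3 enzymes with large changes, 5′ to 3′ on the gene's strand, with matched words in capitals (CCAAT, or ATTGG on the other strand; in Hmgcs1 also the sterol word). Hmgcs1 lies at chr13:119690151-119690350 (+), Mvd at chr8:122443423-122443622 (-) and Msmo1 at chr8:64733579-64733778 (-).
Hmgcs1: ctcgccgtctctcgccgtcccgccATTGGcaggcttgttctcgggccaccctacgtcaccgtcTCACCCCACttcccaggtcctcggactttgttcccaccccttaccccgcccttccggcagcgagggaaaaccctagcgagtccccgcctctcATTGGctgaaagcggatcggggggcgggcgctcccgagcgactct
Mvd: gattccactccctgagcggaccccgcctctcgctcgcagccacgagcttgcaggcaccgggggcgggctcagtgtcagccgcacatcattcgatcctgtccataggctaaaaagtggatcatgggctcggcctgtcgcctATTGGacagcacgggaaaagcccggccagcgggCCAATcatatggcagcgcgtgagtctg
Msmo1: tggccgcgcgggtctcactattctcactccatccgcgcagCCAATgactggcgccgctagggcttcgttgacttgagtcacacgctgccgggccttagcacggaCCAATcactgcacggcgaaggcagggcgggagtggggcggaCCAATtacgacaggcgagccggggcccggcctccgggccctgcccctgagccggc

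The largest change of any enzyme in basal HB against ORS was at the head of the route. Hmgcs1, at chr13:119690379-119708260 (GRCm38, GENCODE M21), which condenses acetyl-CoA units into HMG-CoA, had 105, 157 and 125 CPM in HFSC, 274 and 153 in ORS, 724 and 702 in basal HB, with suprabasal HB at 533 and 509. Every hair bulb library lay above every ORS and HFSC library. The log2 change in basal HB was 1.74 ± 0.27 (SE) against ORS (adjusted p = 0.00153) and 2.47 against HFSC, a 5.53-fold difference of means. Suprabasal HB was lower than basal HB in both libraries, yet the change of -0.45 ± 0.26 did not pass the test (adjusted p = 0.233). With only these 2 populations in the edgeR fit, the change of -0.46 was called (adjusted p = 0.0271). Exons of Gm48342 cover 12.12% of the exon bases of Hmgcs1 on the opposite strand, and the counting strand is not stated. Acat2, the cytosolic enzyme that makes acetoacetyl-CoA, had 50.3, 65.9 and 59.3 CPM in HFSC, 111 and 62.4 in ORS, 186 and 195 in basal HB, against 171 and 156 in suprabasal HB, and rose by 1.13 ± 0.24 in basal HB against ORS (adjusted p = 0.00689). The counts of Acat2 are uncertain because 45.49% of its 25-base words also occur in Acat3. The mevalonate kinase Mvk differed less, at 24.0 to 25.6 CPM in HFSC, 26.0 and 19.2 in ORS, 38.8 and 40.8 in basal HB, with suprabasal HB at 49.9 and 40.5, and its rise of 0.82 ± 0.15 in basal HB against ORS passed (adjusted p = 0.00377).

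Mvd, the decarboxylase that turns mevalonate diphosphate into isopentenyl diphosphate, rose steeply from a low level. It had 11.9, 13.4 and 13.3 CPM in HFSC, 25.5 and 14.5 in ORS, 61.3 and 61.2 in basal HB, against 57.2 and 43.3 in suprabasal HB, with no overlap between the hair bulb libraries and the others. Its log2 change in basal HB against ORS was 1.61 ± 0.24 (adjusted p = 0.00125). Pmvk, the kinase between Mvk and Mvd, had 13.4 to 24.0 CPM in the HFSC and ORS libraries and 32.9 to 38.0 CPM in the hair bulb. Its rise in basal HB against ORS (0.97 ± 0.23, adjusted p = 0.0128) was of nearly the same size without basal HB replicate 1 (0.96, adjusted p = 0.0653) and without replicate 2 (0.98, adjusted p = 0.0545), though no longer called. Idi1, the isomerase that gives the isoprene unit, had 53.1 to 83.5 CPM in HFSC, 185 and 91.4 in ORS, 250 and 247 in basal HB, with suprabasal HB at 275 and 272. For Idi1 the gap between the ORS libraries was as wide as 185 against 91.4 CPM, and the change in basal HB against ORS, 0.85 ± 0.30, did not pass (adjusted p = 0.0644). Fdps, which joins isoprene units into farnesyl diphosphate, had 47.9 to 69.0 CPM in HFSC, 126 and 66.7 in ORS, 219 and 216 in basal HB, against 257 and 237 in suprabasal HB. Its rise in basal HB against ORS had an adjusted p of 0.0106, or 0.0534 without basal HB replicate 1. Shared sequence makes the counts of Idi1 and Fdps uncertain too: 19.3% of the 25-base words of Idi1 and 28.4% of those of Fdps recur in other genes.

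Several enzymes that act on lanosterol and later sterols were likewise higher in basal HB than in ORS. Msmo1, a C4-methyl sterol oxidase, had 62.0, 72.5 and 60.5 CPM in HFSC, 85.4 and 44.3 in ORS, 182 and 179 in basal HB, with suprabasal HB at 207 and 150. ORS straddled HFSC, and the change in basal HB against ORS was 1.48 ± 0.28 (adjusted p = 0.0039). Nsdhl, its partner in removing the C4 methyl groups, had 26.8 to 38.6 CPM in the HFSC and ORS libraries and 78.2 to 90.0 CPM in the hair bulb, a change of 1.29 ± 0.17 in basal HB against ORS (adjusted p = 0.000674). Hsd17b7, the ketoreductase of that complex, was one of the few enzymes already raised in ORS: 16.2, 20.3 and 19.7 CPM in HFSC, 46.3 and 31.8 in ORS, 87.3 and 83.6 in basal HB, against 79.9 and 67.5 in suprabasal HB. Its log2 change was 1.06 ± 0.16 in ORS against HFSC (adjusted p = 0.00118) and 1.13 ± 0.18 in basal HB against ORS (adjusted p = 0.00175), and neither call was lost when any library was left out. Lss, the cyclase that makes lanosterol, had 49.9 to 58.7 CPM in HFSC, 83.1 and 58.8 in ORS, 177 and 163 in basal HB, with suprabasal HB at 143 and 111. It rose by 1.26 ± 0.18 in basal HB against ORS (adjusted p = 0.00108). Cyp51, the lanosterol demethylase, had 36.7 to 54.2 CPM in HFSC, 91.4 and 55.9 in ORS, 167 and 161 in basal HB, against 230 and 179 in suprabasal HB, and rose by 1.16 ± 0.25 at the same step (adjusted p = 0.00737).

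Sqle, the squalene epoxidase, and Fdft1, the squalene synthase, rose in basal HB against ORS with less certainty. Sqle had 60.7 to 78.7 CPM in HFSC, 105 and 65.3 in ORS, 171 and 155 in basal HB, with suprabasal HB at 238 and 171; its adjusted p was 0.0161, but leaving out ORS replicate 2 gave 0.0777, basal HB replicate 1 gave 0.089 and basal HB replicate 2 gave 0.0502. Fdft1 had 62.0 to 71.9 CPM in HFSC, 83.7 and 42.2 in ORS, 147 and 143 in basal HB, against 154 and 117 in suprabasal HB, and its adjusted p of 0.00993 became 0.0524 without basal HB replicate 1. Counts of Fdft1 are further uncertain because exons of Ctsb cover 18.31% of its exon bases on the opposite strand and the counting strand is not stated. In addition, 16.29% of its 25-base words also occur in Gm6781. Sc5d, the lathosterol desaturase, had 26.4 to 34.4 CPM in the HFSC and ORS libraries and 54.3 and 54.2 in basal HB, with suprabasal HB at 52.0 and 38.8; the change in basal HB against ORS was 0.83 ± 0.17 (adjusted p = 0.00683).

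The enzymes Dhcr7, Tm7sf2 and Ebp rose within the bulb, in suprabasal HB against basal HB, and Dhcr7 and Ebp had no rise called in basal HB against ORS (-0.26 ± 0.13 with adjusted p = 0.173, and 0.16 with adjusted p = 0.344). Dhcr7, which makes cholesterol from 7-dehydrocholesterol, had 93.3, 99.7 and 94.0 CPM in HFSC, 68.1 and 66.9 in ORS, 58.6 and 53.9 in basal HB, with suprabasal HB at 138 and 103. It was the single enzyme that fell from HFSC to basal HB (log2 change -0.77, adjusted p = 0.001), and it rose by 1.10 ± 0.13 in suprabasal HB against basal HB (adjusted p = 0.000586). The rise of Dhcr7 in suprabasal HB against HFSC was small (0.33, adjusted p = 0.044). That call was lost on TPM (adjusted p = 0.44) and with the replicate number as a block (adjusted p = 0.105). Without suprabasal HB replicate 1 the change was 0.10. The fall of Dhcr7 in ORS against HFSC (-0.50 ± 0.12, adjusted p = 0.0104) was not called without any one of the 3 HFSC libraries or without ORS replicate 2 (adjusted p 0.0512 to 0.0662), nor on TPM (adjusted p = 0.0998). Tm7sf2, a sterol C14 reductase, had 9.44 to 11.8 CPM in HFSC and ORS, 16.9 and 16.2 in basal HB, against 36.4 and 30.1 in suprabasal HB, a change of 1.01 ± 0.14 between the bulb populations (adjusted p = 0.00119), although 14.59% of its 25-base words recur in other genes, chiefly its neighbour Vps51. It was also called higher in basal HB against ORS (0.55 ± 0.14, adjusted p = 0.0171), a call lost on TPM (adjusted p = 0.107) and without ORS replicate 2 or either basal HB library (adjusted p 0.0635 to 0.101). Ebp, the sterol isomerase, had 27.7 to 36.6 CPM in HFSC, ORS and basal HB, with suprabasal HB at 50.7 and 53.1, a change of 0.59 ± 0.11 (adjusted p = 0.00505) that was lost without basal HB replicate 1 (adjusted p = 0.0527) and on TPM (adjusted p = 0.305). The rise of these 3 enzymes ran along the same contrast as the melanocyte markers, of which 8 of 8 rose in suprabasal HB against basal HB at a median log2 change of 3.62. Of 6 inner root sheath and shaft markers, 5 rose and 1, Tchh, fell, at a median of 1.91 over the 6. The mean of their summed CPM was 4351 in basal HB and 3347 in suprabasal HB. Among all genes 13.1% rose and 14.8% fell. The part of these marked cells in the result was not tested.

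The 2 ORS libraries differed in the synthesis enzymes as a group. All 18 enzymes were higher in ORS replicate 1 than in replicate 2, by a median of 0.70 on the log2 scale (1.62-fold), whereas 48.9% of all genes tested were higher there and 2 of the 5 efflux, LXR and uptake control genes were. Markers of other cells leaned the same way: 8 of 8 melanocyte markers (median 2.47), 8 of 8 fibroblast and papilla markers (0.82), 7 of 7 immune markers tested (0.61) and 5 of 6 inner root sheath and shaft markers (1.19) were higher in ORS replicate 1, and their part in the enzyme difference was not tested. In suprabasal HB, 17 of 18 enzymes were higher in replicate 1, by a median of 0.29, against 50.1% of all genes, and so were 8 of 8 fibroblast and papilla markers (median 1.04) and 5 of 6 inner root sheath and shaft markers (0.57). Other lists did not lean this way: 0 of 7 immune (median -0.75), 0 of 4 adipocyte (-1.11) and 2 of 10 sebaceous gland markers (-0.43) were higher. Of 8 melanocyte markers, 4 were (-0.006). The part of these marked cells was not tested. In HFSC, 1 of 18 enzymes was higher in replicate 1 than in replicate 2 (median -0.28). In basal HB 14 of 18 enzymes were higher in replicate 1, against 41.9% of all genes, though the median gap was only 0.02.

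The comparison that rests on these ORS libraries and on HFSC was the least stable. In ORS against HFSC, 5 enzymes rose (Hmgcs1, Mvd, Idi1, Cyp51 and Hsd17b7) and Dhcr7 fell, where 18.1% of genes rose and 23.8% fell, and the median log2 change of the 18 enzymes was 0.22. Without ORS replicate 1, 1 enzyme rose, 3 fell and the median was 0.03. Without ORS replicate 2, 9 rose, none fell and the median was 0.50. The count of 5 also dropped to 2 without HFSC replicate 1, HFSC replicate 3, basal HB replicate 1 or basal HB replicate 2, and on TPM it was 10. Of the 5, the call on Hsd17b7 was the one kept under every alternative run.

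**Figure D2:**
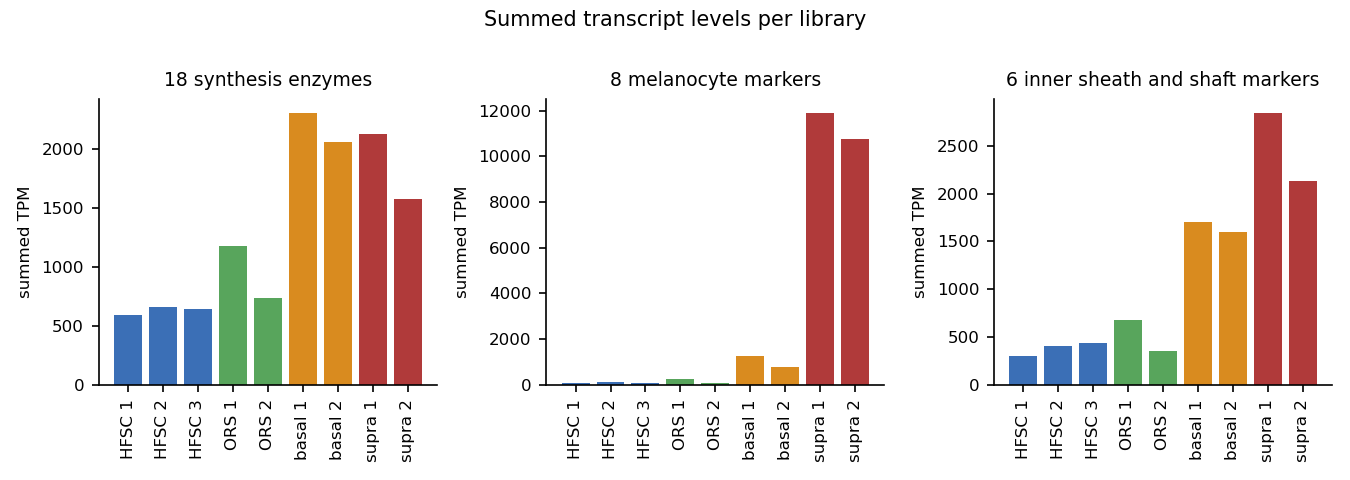
Summed TPM per library (bars, linear axes from 0) of the 18 synthesis enzymes, of 8 melanocyte markers and of 6 inner root sheath and hair shaft markers; numbers on the horizontal axis are replicates. ORS replicate 1 exceeds ORS replicate 2 in all 3 panels (1179 against 735 TPM for the enzymes), and the melanocyte sum in suprabasal HB is far above all other libraries.

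Among the genes that control the SREBPs, the INSIG pair differed between HFSC and the hair bulb in opposite directions. Insig2 (chr1:121304353-121332589), whose protein retains SCAP in the endoplasmic reticulum, had 309, 348 and 323 CPM in HFSC, 93.7 and 92.0 in ORS, 40.1 and 48.5 in basal HB, with suprabasal HB at 45.6 and 48.7. HFSC lay above all other libraries and ORS above the hair bulb, while the bulb populations overlapped. Its log2 change was -1.81 ± 0.11 in ORS against HFSC (adjusted p = 2.65e-05), -1.07 ± 0.11 in basal HB against ORS (adjusted p = 0.000291) and -2.88 in basal HB against HFSC (adjusted p = 2.2e-06), and no alternative run ended these calls. Insig1, the form that SREBPs themselves induce, had 30.6, 41.2 and 35.9 CPM in HFSC, 66.8 and 31.4 in ORS, 111 and 87.4 in basal HB, against 240 and 146 in suprabasal HB. Each step up had wide spread, and neither basal HB against ORS (1.01 ± 0.35, adjusted p = 0.0558) nor suprabasal HB against basal HB (0.96 ± 0.35, adjusted p = 0.0704) passed, although the libraries of each pair did not overlap. Against HFSC, Insig1 rose in basal HB (1.47 ± 0.31, adjusted p = 0.00461) and in suprabasal HB (2.43 ± 0.32, adjusted p = 0.000259). On TPM, where levels of different genes can be set side by side, Insig2 was 261 ± 9.6 and Insig1 23.1 ± 3.1 in HFSC (mean ± SD, n = 3), whereas in suprabasal HB Insig2 was 35.6 ± 1.1 and Insig1 126 ± 55 (n = 2). The order of the 2 levels was thus reversed between these populations. The 200 bases before the start are given for both, since they are the pair that diverged: Insig1 at chr5:28071212-28071411 (+), with 1 CACGTG in capitals, and Insig2 at chr1:121332590-121332789 (-), the first of its 3 RefSeq starts, with 3 CCAAT words (1 of them on the other strand) in capitals. Insig1 also holds a CCAAT word (ATTGG, at -216 from the start), which lies outside the bases shown. The other starts of Insig2 hold none of the words searched. The deposited values do not separate the starts.
Insig1: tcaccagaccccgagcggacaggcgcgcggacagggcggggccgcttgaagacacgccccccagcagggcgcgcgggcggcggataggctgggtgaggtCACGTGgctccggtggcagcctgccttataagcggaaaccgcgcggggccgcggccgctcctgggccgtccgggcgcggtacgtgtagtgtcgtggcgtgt
Insig2: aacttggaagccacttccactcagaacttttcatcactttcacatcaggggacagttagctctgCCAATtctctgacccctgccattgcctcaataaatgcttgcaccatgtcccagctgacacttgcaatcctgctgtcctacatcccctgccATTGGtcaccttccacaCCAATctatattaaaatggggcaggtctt

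Srebf2, which encodes SREBP2, had 219, 181 and 202 CPM in HFSC, 234 and 193 in ORS, 404 and 391 in basal HB, with suprabasal HB at 429 and 377. HFSC and ORS overlapped, the hair bulb lay above both, and the change in basal HB against ORS was 0.90 ± 0.14 (adjusted p = 0.00139). Srebf1 had 88.9 to 115 CPM in HFSC and ORS, 164 and 155 in basal HB, against 170 and 128 in suprabasal HB. Its rise of 0.77 ± 0.15 in basal HB against ORS (adjusted p = 0.00481) was not called on TPM (adjusted p = 0.0619). Scap was level at 120 to 142 CPM across all 9 libraries and passed in none of the 3 neighbouring comparisons, its change in basal HB against ORS being 0.01 ± 0.11. Exons of 5830462I19Rik cover 13.23% of the exon bases of Scap on the opposite strand. Of the 5 control genes, 2 rose and 1 fell in basal HB against ORS, where 15.8% of all genes rose and 14.7% fell. Between the bulb populations none passed by edgeR, 1 (Insig1) rose at an unadjusted p under 0.05, and DESeq2 called 1.

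Genes outside the members that process or degrade the SREBP machinery had no rise called in basal HB against ORS. Of 10 such genes, none rose and 4 fell there by edgeR (none rose at an unadjusted p under 0.05 or by DESeq2), and 1 rose and 6 fell in basal HB against HFSC, where 14.7% and 26.1% of all genes fell. On TPM none rose or fell in the first of these comparisons, and 2 rose and 1 fell in the second. Erlin2, which helps degrade sterol-sensing proteins, fell by 0.97 on the log2 scale in basal HB against HFSC (SE 0.10, adjusted p = 7.04e-05), and Mbtps1, the site-1 protease that cuts SREBPs, fell by 0.65 (SE 0.08, adjusted p = 0.000315; 0.0569 on TPM). With single libraries left out, 0 to 4 falls were called in basal HB against ORS.

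**Figure D3:**
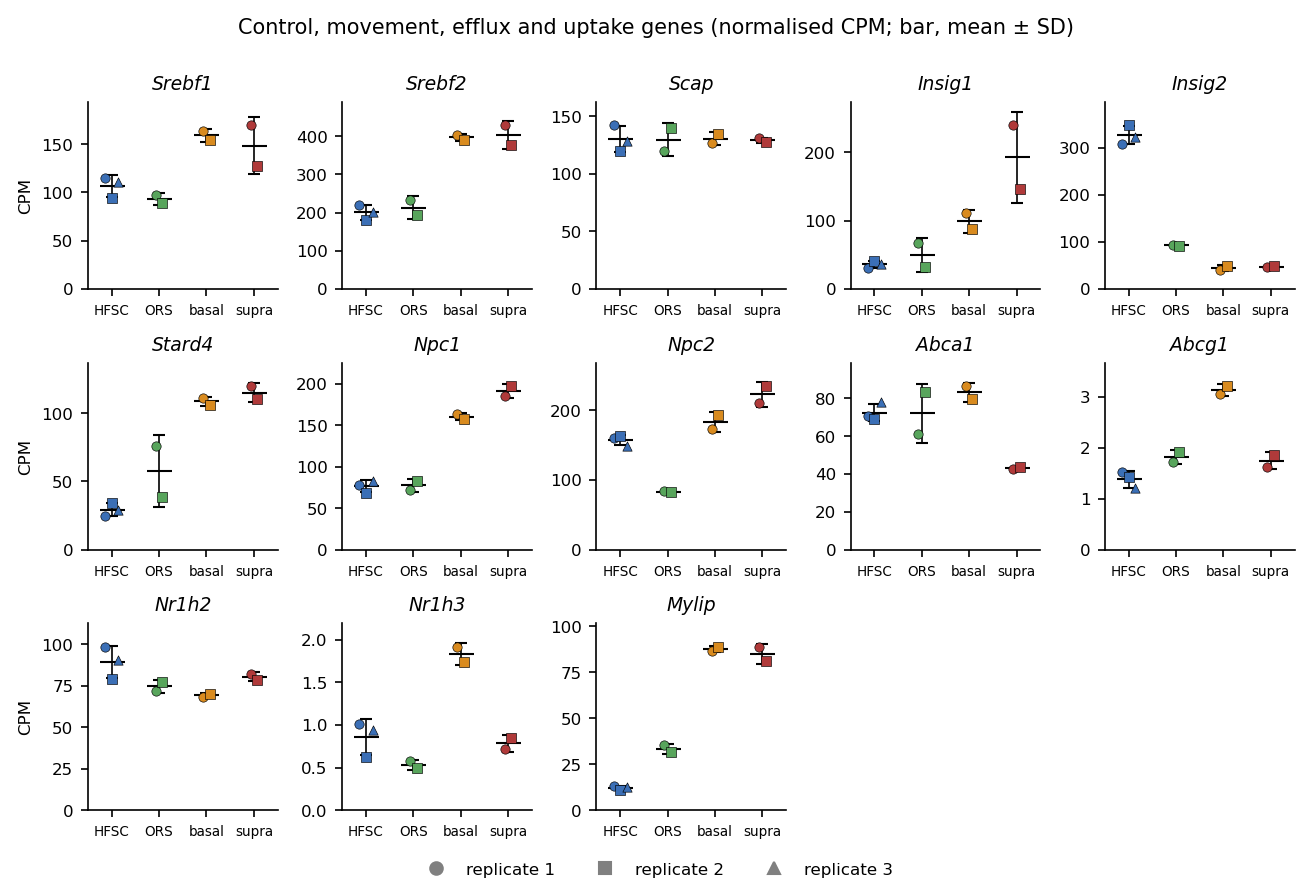
Normalised CPM (linear axes from 0) of the 13 members that are not enzymes, in HFSC, ORS, basal HB and suprabasal HB (supra); points are libraries and black bars the mean ± SD over 3, 2, 2 and 2 libraries. Insig2 is highest in HFSC, Mylip and Npc1 are high in both hair bulb populations, Scap is level, and Abca1 is lowest in suprabasal HB.

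The genes that carry sterol inside the cell were also higher in the hair bulb. Npc1, which exports cholesterol from the lysosome, had 68.1 to 83.3 CPM in HFSC and ORS, 163 and 158 in basal HB, with suprabasal HB at 185 and 197, a change of 1.04 ± 0.12 in basal HB against ORS (adjusted p = 0.000348). Npc2, the soluble protein that hands cholesterol to NPC1, had a dip in ORS: 160, 163 and 149 CPM in HFSC, 83.6 and 82.1 in ORS, 173 and 194 in basal HB, against 210 and 235 in suprabasal HB. It fell by 0.92 on the log2 scale in ORS against HFSC (SE 0.09, adjusted p = 0.00016) and rose by 1.15 ± 0.10 in basal HB against ORS (adjusted p = 0.000158). Stard4, a cytosolic sterol carrier that SREBP2 induces, had 24.6 to 34.4 CPM in HFSC, 76.2 and 38.7 in ORS, 111 and 106 in basal HB, with suprabasal HB at 120 and 110. Stard4 was higher in ORS replicate 1 than in replicate 2, like the enzymes. Its rise in ORS against HFSC (adjusted p = 0.013) was lost with the replicate number as a block (adjusted p = 0.0627). Without ORS replicate 1 that log2 change was 0.40 in place of 0.97. The call of Stard4 in basal HB against ORS (adjusted p = 0.0319) was lost with the block (adjusted p = 0.0635). With only these 2 populations in the fit it was lost too (adjusted p = 0.0712). This log2 change, 0.92, was 0.51 without ORS replicate 2, and 0.89 and 0.95 without basal HB replicate 1 and 2. All 3 genes rose in basal HB against ORS, where 15.8% of all genes rose. Between the bulb populations none passed by edgeR or DESeq2, and 1 rose at an unadjusted p under 0.05.

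Among the efflux, LXR and uptake control genes, 1 rose at both of the first steps. Mylip, which directs lipoprotein receptors to degradation, had 12.9, 11.2 and 12.7 CPM in HFSC, 35.3 and 31.4 in ORS, 86.6 and 89.0 in basal HB, against 88.7 and 81.2 in suprabasal HB. No HFSC library overlapped ORS and no ORS library the hair bulb, and the bulb populations overlapped each other. Mylip rose by 1.44 ± 0.09 in ORS against HFSC (adjusted p = 3.03e-05) and by 1.40 ± 0.10 in basal HB against ORS (adjusted p = 8.72e-05), calls that no alternative run ended. Its 200 bases before the start, at chr13:45389542-45389741 (+), are shown because its libraries did not overlap at either of these steps; they hold 3 ATTGG words, in capitals.
Mylip: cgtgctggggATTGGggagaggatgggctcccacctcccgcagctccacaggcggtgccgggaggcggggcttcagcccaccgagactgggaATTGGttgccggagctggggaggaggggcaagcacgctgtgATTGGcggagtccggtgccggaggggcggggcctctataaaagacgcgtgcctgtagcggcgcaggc

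Abca1, which loads cholesterol onto apolipoproteins, had 69.2 to 77.8 CPM in HFSC, 60.9 and 83.2 in ORS, 86.6 and 79.7 in basal HB, with suprabasal HB at 42.5 and 43.5. ORS overlapped both HFSC and basal HB, and suprabasal HB lay below all of them, with a change of -0.95 ± 0.14 against basal HB (adjusted p = 0.00159). Abcg1, which passes sterol to formed lipoprotein particles, was scarce, at no more than 1.91 CPM in HFSC, ORS and suprabasal HB and 3.06 and 3.21 CPM in basal HB. Nr1h3, which encodes LXRα, was scarcer still, at 0.492 to 1.02 CPM outside basal HB and 1.92 and 1.74 CPM within it. Both fell in suprabasal HB against basal HB, but without either library of either population the adjusted p was 0.0574 to 0.12 for Abcg1 and 0.0551 to 0.112 for Nr1h3. Immune cells carry both genes as well, and the 8 immune markers summed to 165 and 179 CPM in basal HB against 68.5 to 147 in the other libraries, with their part in these results not tested. Nr1h2, which encodes LXRβ, was the main LXR transcript, with 111 ± 15 TPM in HFSC (mean ± SD, n = 3), 92.0 ± 7.0 in ORS, 85.1 ± 8.2 in basal HB and 80.3 ± 14 in suprabasal HB (n = 2 each), against at most 2.79 TPM of Nr1h3 in any library. Nr1h2 passed in none of the 3 neighbouring comparisons.

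Synthesis and efflux genes were set side by side. In basal HB against ORS, 15 of 18 enzymes rose and 3 of 5 efflux, LXR and uptake control genes did (Abcg1, Nr1h3 and Mylip). Their median log2 changes were 1.13 and 0.79, where 15.8% of all genes rose. The call on Abcg1 there was lost without any one ORS or basal HB library (adjusted p 0.0771 to 0.136). In suprabasal HB against basal HB, 3 of 18 enzymes rose, close to the 13.1% of all genes that did, and none fell in the fit of all 9 libraries. Of the 5 genes, 3 fell (Abca1, Abcg1 and Nr1h3) and none rose, where 14.8% of all genes fell. The medians were 0.06 and -0.85. No gene of the 5 rose there at an unadjusted p under 0.05 or by DESeq2. The 3 falls became 1, Abca1, when any basal HB or suprabasal HB library was left out. The 5 genes did not move as 1 group on TPM. Nr1h2 made up most of their sum, for example 94.7 of 110 TPM in HFSC replicate 2. Mylip had a mean of 5.88 TPM in HFSC and 55.1 in basal HB, while Abca1 had 10.2 TPM in HFSC, 16.1 in basal HB and 6.82 in suprabasal HB. The summed TPM of the 18 enzymes had means of 630, 2190 and 1855 in these 3 populations. The difference between the groups' changes was not tested.

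**Figure D4:**
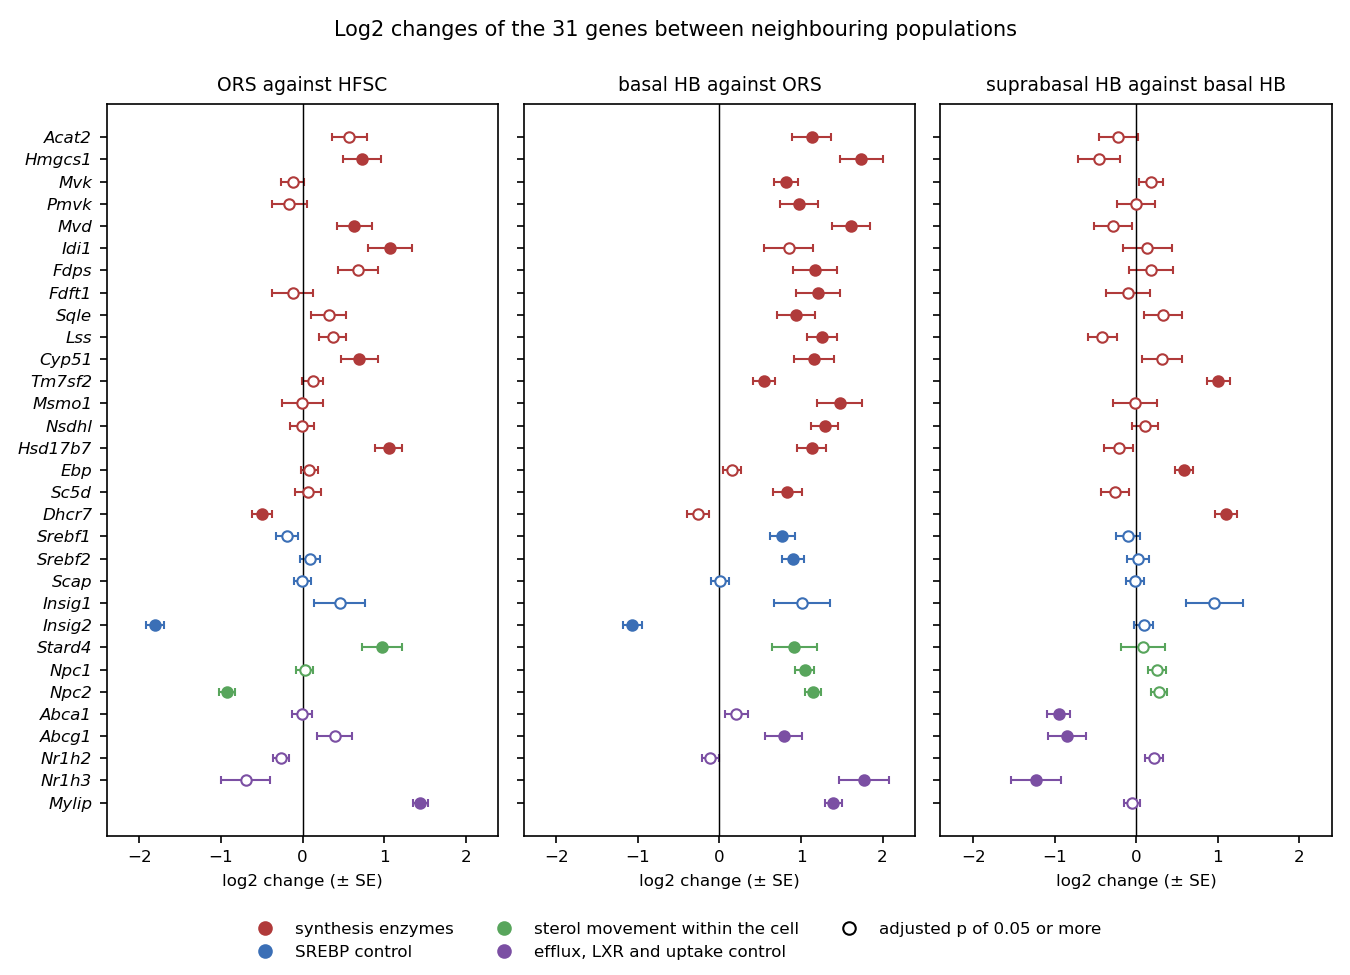
Log2 change ± SE of the 31 genes (rows, coloured by role) in ORS against HFSC, basal HB against ORS and suprabasal HB against basal HB; filled points have an adjusted p under 0.05 in the edgeR test. Enzymes lie mainly right of 0 in the middle panel (15 of 18 filled), Insig2 lies left of 0 in the first 2 panels, and Abca1, Abcg1 and Nr1h3 lie left of 0 in the last.

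Further genes of uptake, transfer and efflux, and further LXR targets, mostly fell at the first step, from HFSC to ORS. Of 18 uptake, transfer and efflux genes outside the members, 1 rose and 10 fell in ORS against HFSC, at a median log2 change of -0.40 (18.1% of all genes rose and 23.8% fell, at a median of -0.048). In the next comparisons 6 rose and 3 fell in basal HB against ORS (15.8% and 14.7% of all genes), and 2 rose and 4 fell in suprabasal HB against basal HB (13.1% and 14.8%). On TPM the falls in ORS against HFSC were as few as 4. Stard5, a sterol-binding protein of the cytosol, had 230, 216 and 191 CPM in HFSC, 58.3 and 68.8 in ORS, 32.9 and 42.6 in basal HB, against 16.2 and 14.9 in suprabasal HB. It stepped down without overlap at each population, with log2 changes of -1.74 ± 0.14, -0.75 ± 0.15 and -1.28 ± 0.15, and no alternative run ended these calls. Lrp8, a lipoprotein receptor that IDOL also targets, moved the other way at the first step, from 10.9 to 11.6 CPM in HFSC to 32.6 and 34.2 CPM in ORS (log2 change 1.55 ± 0.13, adjusted p = 7.21e-05). Of 6 further LXR targets tested, none rose (by edgeR, DESeq2 or at an unadjusted p under 0.05) and 5 fell in ORS against HFSC (23.8% of all genes fell), led by Tnfaip2 (-1.98 ± 0.16, adjusted p = 6.29e-05), and in basal HB against ORS 2 rose and none fell by any of these.

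Fatty acid synthesis genes driven by SREBP1 were split. Of 12 such genes, 5 rose and 3 fell in basal HB against ORS (15.8% and 14.7% of all genes), and 8 rose and 3 fell in basal HB against HFSC (22.8% and 26.1%), at a median log2 change of 0.61. Scd2, a stearoyl-CoA desaturase, had 324 to 400.1 CPM in HFSC, 738 and 496 in ORS, 1487 and 1420 in basal HB, with suprabasal HB at 1758 and 1482, a rise of 1.24 ± 0.20 in basal HB against ORS (adjusted p = 0.00179). Gpam, the mitochondrial enzyme that begins glycerolipid synthesis, ran against it: 104 to 114 CPM in HFSC, 81.8 and 107 in ORS, 37.2 and 42.4 in basal HB, against 26.1 and 23.2 in suprabasal HB. Fads2, a desaturase of polyunsaturated fatty acids, fell by 1.35 on the log2 scale in basal HB against ORS (SE 0.23, adjusted p = 0.00244). In the prenyl branch, which draws on the same mevalonate route for isoprenoids other than sterols, none of 12 genes passed in basal HB against ORS by edgeR or DESeq2. At an unadjusted p under 0.05, 1 rose and 4 fell.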

How the data were processed

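Messenger RNA of each sorted sample was prepared by a TruSeq kit for paired-end HiSeq runs, per the labels. The authors ran Bowtie2 2.2.9 and RSEM 1.2.30 on mm10, per the submitters' processing notes. Run settings and the counting strand are not given in the sources used here. Per the file headers, the authors deposited an expected count per gene for each library, an estimate that need not be whole and is not normalized. The authors also deposited TPM, scaled by effective length and depth, per the file headers. A TPM table of the whole series was not used.

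Expected counts were rounded and fitted in edgeR 4.0.16 (R 4.3.3): filterByExpr on the 4 populations left 20491 genes, TMM factors were 0.8996 to 1.127, and all 9 libraries entered 1 quasi-likelihood fit with 5 residual degrees of freedom. Tests were 2-sided, adjusted by Benjamini and Hochberg over all genes tested, with a threshold of 0.05. CPM are TMM-normalised, and the SE of a log2 change was taken as its size over the root of the F statistic. The 6 comparisons cover all pairs of populations and share libraries. Alternatives were DESeq2 1.42.0, limma 3.58.1 on log2(TPM + 1) or log2(TPM + 0.1), other scalings and filters, the replicate number as a block, and leaving out each library. The fits were tested on simulated data.

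The members and gene lists were chosen with earlier results of these data known. All 31 members are named; in other lists, up to 3 called genes per direction and comparison with the largest change could be named. Positions come from GENCODE M21, which held 98.9% of gene rows, and promoters from RefSeq. Shared 25-base words were counted over GENCODE transcripts. Total counts set the precision: 3 counts were worth 0.0339 to 0.12 CPM. The labels mention no molecular identifiers, so this covers counting error only. The 92 spike-in rows were at 0.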

Additional observations from a re-analysis of the deposited data

How the results depend on the processing

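Of 121 pairs of member and comparison that were called, 37 lost the call in at least 1 of 18 alternative settings, 27 of them in a setting that left out no library, and none changed sign. The number of members that rose in ORS against HFSC, 7, was the least stable: it was 13 on log2(TPM + 1), 12 on log2(TPM + 0.1), and 2 to 12 when single libraries were left out (2 without ORS replicate 1, 12 without ORS replicate 2). The members that fell there numbered 3, and 2 to 5 with single libraries left out. The members that fell in suprabasal HB against basal HB numbered 3, and 1 to 3. Whether replicate numbers pair these libraries is not settled. In their deviations from the population mean, 2 of 12 same-number pairs correlated above 0.1 (range -0.105 to 0.121). In a population of 2 libraries these deviations mirror each other, so the values are not independent. Between ORS, basal HB and suprabasal HB, same-number pairs correlated at 0.068, 0.097 and 0.121. With the number as a replicate block, 2 members rose in ORS against HFSC. In the main fit 18.1% of all genes rose and 23.8% fell in that comparison. The number of members that rose or fell moved by 1.5 times or less in the other comparisons and settings. TPM moved the median of all genes by 0.298 in ORS against HFSC, 0.33 in basal HB against HFSC, -0.248 in suprabasal HB against basal HB, -0.2 in suprabasal HB against ORS, with suprabasal HB against HFSC at 0.103 (log2). Of genes called on TPM in the first 4 of these, 68.5%, 72.5%, 20.5% and 31.3% were higher, against 43.2%, 46.7%, 46.8% and 48.6% on counts. All genes called higher in ORS against HFSC numbered 5991 on TPM and 3703 on counts, and 1098 against 2679 between the bulb populations; lower genes in ORS against HFSC numbered 2756 against 4873. In basal HB against HFSC, 7940 genes were higher and 3018 lower on TPM, against 4681 and 5345 on counts, and in suprabasal HB against ORS 1835 against 2927 were higher. With single libraries left out, all genes called higher and lower numbered 873 to 2720 and 1843 to 3377 between the bulb populations, 2133 to 3538 and 1351 to 2994 in basal HB against ORS, 3110 to 5790 and 3397 to 5358 in basal HB against HFSC, and 1831 to 3131 and 2053 to 3165 in suprabasal HB against ORS. On TPM the median enzyme change in suprabasal HB against basal HB was -0.22 in place of 0.06. Of the scarce genes, Abcg1 lost its calls in basal HB against ORS and in the bulb comparison without any one library of the populations compared, and Nr1h3 lost its call in the bulb comparison likewise, whereas its call in basal HB against ORS (1.78) was kept in every setting.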
